A study of Mus musculus with 5 samples.

Results

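Conventional dendritic cells are antigen-presenting cells of the myeloid lineage. A rule for them and their precursors chose 312 of 29679 bone marrow barcodes, or 1.05% (exact binomial 95% interval 0.938 to 1.17%), by their own unique molecular identifier (UMI) counts. For most of the 312, including a mixed set of 81, the marker genes described below bear out the name only in part, so the cells are called members. A barcode was used when it held at least 500 UMIs and at most 10% of them came from mitochondrial genes. A member held at least 20 UMIs of the class II genes H2-Aa, H2-Eb1 and Cd74 and at least 2 UMIs over Cd209a, Xcr1, Clec9a, Itgax and Naaa. It also held fewer than 2 UMIs of the B cell gene Cd79a, fewer than 2 of the plasmacytoid gene Siglech and fewer than 10 over the macrophage genes C1qa, C1qb and C1qc. High levels of the chosen genes are therefore a consequence of the rule, and every gene difference between kinds of member or between members and other cells is given as a description.

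The series follows a mouse model of BCR-ABL1 pre-B acute lymphoblastic leukemia by droplet-based single-cell RNA sequencing of bone marrow. C57BL/6J mice that had not been irradiated each received 1000 leukemia cells into the tail vein, and marrow was taken at day 0, 3, 6, 9 or 12. The day 0 mouse was killed right after it had received the cells, so no mouse without leukemia cells was compared. Each day is 1 mouse, marrow flushed from the femurs and tibias was pooled with cells released from the crushed bones by collagenase and DNase, the red cells were lysed, and the cells were frozen before they were sequenced. With 1 mouse a day there was no replicate error, no test between days was possible and no p-value is given. Intervals cover counting error only.

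Dendritic cells arise in the marrow from progenitors that depend on FLT3, the receptor for the growth factor FLT3 ligand. Type 1 conventional dendritic cells (cDC1) depend on the transcription factors IRF8 and BATF3, take up dead cells through CLEC9A and carry the chemokine receptor XCR1. Type 2 cells (cDC2) carry SIRPA and lectin receptors such as CD209A and CLEC10A, and both types present peptides to T cells on class II molecules. Cells of monocytic origin can carry Cd209a and class II genes as well.

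The genes of the rule lie on several chromosomes of the mouse genome (GRCm38, GENCODE annotation). Cd209a (ENSMUSG00000031494) occupies chr8:3743397-3748984 on the minus strand, Xcr1 (ENSMUSG00000060509) chr9:123852315-123862029 on the minus strand, and Clec9a (ENSMUSG00000046080) chr6:129408862-129424763 on the plus strand. Naaa (ENSMUSG00000029413) occupies chr5:92257659-92278170 on the minus strand and Itgax (ENSMUSG00000030789) chr7:128129547-128150657 on the plus strand. The receptor gene Flt3 (ENSMUSG00000042817), which the rule did not use, occupies chr5:147330741-147400489 on the minus strand.

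Upstream sequences are shown for class II genes that chose the cells and for Ifi205, a gene that differed between kinds of member. Each is the 250 bases before the RefSeq transcription start in GRCm38.p6, read 5′ to 3′ on the strand of the gene. Capitals mark CTGATTGG, the letters of the class II Y box, in H2-Aa (chr17:34287824-34288073, minus strand) and H2-Eb1 (chr17:34305617-34305866, plus strand). In Ifi205 (chr1:174031756-174032005, minus strand) they mark GAAA, any 2 bases and GAAA, the letters of an interferon-stimulated response element.
H2-Aa: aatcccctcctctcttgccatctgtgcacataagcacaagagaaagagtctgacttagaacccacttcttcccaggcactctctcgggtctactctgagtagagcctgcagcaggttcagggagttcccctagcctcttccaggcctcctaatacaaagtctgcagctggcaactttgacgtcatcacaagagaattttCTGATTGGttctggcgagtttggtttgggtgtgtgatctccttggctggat
H2-Eb1: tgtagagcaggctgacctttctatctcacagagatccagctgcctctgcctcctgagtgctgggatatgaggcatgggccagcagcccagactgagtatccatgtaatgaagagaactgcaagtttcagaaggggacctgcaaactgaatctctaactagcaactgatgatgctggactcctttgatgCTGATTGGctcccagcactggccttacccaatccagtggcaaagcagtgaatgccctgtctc
Ifi205: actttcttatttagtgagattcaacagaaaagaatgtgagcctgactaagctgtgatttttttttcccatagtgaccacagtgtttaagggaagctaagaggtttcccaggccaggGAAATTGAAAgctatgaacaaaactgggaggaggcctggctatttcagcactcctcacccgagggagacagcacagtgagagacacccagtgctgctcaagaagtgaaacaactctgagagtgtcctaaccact
The Y box letters lay 51 to 44 bases before the start in H2-Aa and 62 to 55 bases before it in H2-Eb1. On either strand they were found in 4 of 13 windows of the class II list, which covered 11 of its 14 genes, and in 3.83% of all 32851 windows of this length. The letters in Ifi205 lay 134 to 125 bases before its start, and 2.98% of all windows held them. Of the 13 class II windows 1 held them (Ctss). Among the genes with the largest ratios between Cd209a and Xcr1/Clec9a cells, the kinds of member described below, these letters were found in 1 of 15 windows on the Cd209a side (Tnfrsf1b) and in 1 of 9 on the other side (Ifi205). The Y box letters were found in 0 of the 15 and in 2 of the 9, those of Cxcl9 and Irf8. TGANTCA, the letters of an AP-1 site, were found in 6.75% of all windows. They were found in 2 of the 13 class II windows (H2-DMa and H2-DMb1) and in 0 of the 15 and 0 of the 9. Of 6 windows of Cd209a, Xcr1, Clec9a, Itgax, Naaa and Flt3, 1 held them (Itgax). GGAA, any 2 bases and GAAA, the letters of an ETS and IRF site, were found in 2.30%, and GAAA followed directly by TGANTCA in 0.100%. All were searched on both strands. A match describes letters in a window and is not a binding site shown by these data.

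Each library held 4870 to 6944 used barcodes, with 33425695 to 43554233 UMIs over all barcodes and a median of 3143 to 4397 UMIs per used barcode. The mitochondrial limit left out 5.21 to 11.0% of the barcodes with at least 500 UMIs. Members were deeper, with a median of 6471 UMIs and a range of 799 to 19192. A pair of libraries shared 40 to 61 barcode sequences, 12 members carried a sequence that was also used in another library, and 0 sequences belonged to members of more than 1 library. A doublet caller marked 1 member, but it marked at most 3 barcodes in 4 of the 5 libraries and cannot be taken to have worked there.

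Members made up 0.703% of the used barcodes at day 0 (44 cells, 95% interval 0.511 to 0.943%), 1.42% at day 3 (69 cells, 1.10 to 1.79%), 1.31% at day 6 (79 cells, 1.04 to 1.63%), 1.21% at day 9 (84 cells, 0.966 to 1.5%) and 0.647% at day 12 (36 cells, 0.453 to 0.894%). The shares at days 3, 6 and 9 were higher than those at days 0 and 12, and the counting intervals of these 2 sets of days did not overlap. Members at days 3 and 6 were also deeper, with medians of 7742 and 7242 UMIs, against 6115.5 at day 0, 5941 at day 9 and 5222 at day 12. A fixed UMI minimum is met more easily by a deeper cell, and the part of depth in the shares was not tested.

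**Figure D1:**
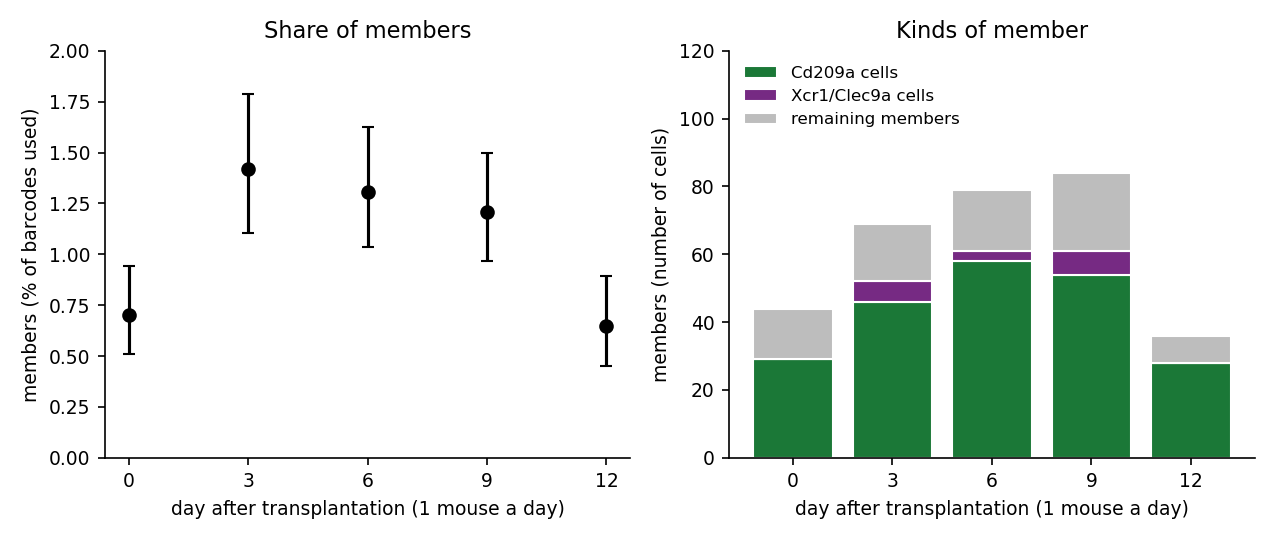
Left, members as a percentage of used barcodes at each day after transplantation, with exact binomial 95% intervals that cover counting error only. Right, the number of members of each kind at each day, 1 mouse a day; days 3, 6 and 9 held 69, 79 and 84 members and days 0 and 12 held 44 and 36.

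Splitting the members by their marker UMIs gave 215 Cd209a cells, 16 Xcr1/Clec9a cells and 81 remaining members. A Cd209a cell held at least 2 Cd209a UMIs and more of them than of Xcr1 and Clec9a together, and an Xcr1/Clec9a cell held at least 2 Xcr1 and Clec9a UMIs and more of them than of Cd209a. Cd209a cells numbered 29, 46, 58, 54 and 28 from day 0 to day 12, which was 65.9%, 66.7%, 73.4%, 64.3% and 77.8% of the members. They were the majority at every day. Xcr1/Clec9a cells numbered 0, 6, 3, 7 and 0. The counts of 0 among 44 members at day 0 and 36 at day 12 have exact upper limits of 8.04% and 9.74%. The shares at days 3, 6 and 9 were 8.70% (3.26 to 18.0%), 3.8% (0.790 to 10.7%) and 8.33% (3.42 to 16.4%), and each of these intervals reaches below both limits.

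The split rested on few UMIs in many cells. Cd209a cells held a median of 6 Cd209a UMIs (2 to 38), and 50 of the 215 held 2 or 3. Xcr1/Clec9a cells held a median of 3 Xcr1 and Clec9a UMIs, at most 14, and 9 of the 16 held 2 or 3. These 16 were the deepest kind, with a median of 13372 UMIs at day 3, 14434 at day 6 and 10162 at day 9, against 7713, 7018.5 and 5577.5 in Cd209a cells. When 311 members were thinned to 1000 UMIs each before the split, 76 Cd209a cells and 2 Xcr1/Clec9a cells were left. Of the 81 remaining members, 57 held at least 2 UMIs of Naaa, 8 held at least 2 of Itgax, and 45 held no UMI of Cd209a, Xcr1 or Clec9a.

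Marker genes outside the rule bore out the label for Xcr1/Clec9a cells, and only in part for Cd209a cells and the remaining members. In Cd209a cells Flt3 and 4 of 8 shared dendritic cell genes were higher than in monocytes. Zbtb46 was not shown to lie above free RNA there at equal depth. Of 7 classical monocyte genes that chose neither side, 6 lay within 2-fold of monocytes. These values are given below. All levels here are summed UMIs of a gene per 10000 UMIs of the cells. Flt3 was at 0.884 in Cd209a cells, 0.973 in Xcr1/Clec9a cells and 0.46 in the remaining members, against 0.0906 in monocytes, 1.06 in plasmacytoid cells and 0.0404 in T cells of the same libraries. Its level in members was 0.756, 0.745, 0.866, 0.744 and 0.772 in the order of the days and so varied little. A Flt3 UMI was seen in 125 of the 312 members (40.1%), and in 31.8%, 46.4%, 44.3%, 35.7% and 38.9% of them from day 0 to day 12. After thinning to 1000 UMIs this was 7.40% of 311 members, 0.657% of 2738 monocytes and 0.135% of 1483 T cells. T cells should lack the gene and had a median of 2419 to 3301.5 UMIs before thinning, so the share in members was above the level of free RNA.

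Free RNA from lysed cells was also set beside the genes of the rule. Cd209a was found in 46.3% of thinned members, 0.405% of T cells, 0.510% of 4709 neutrophils, 2.26% of monocytes and 13.3% of 705 plasmacytoid cells. Before thinning the shares were 76.3% in members, 1.33% in T cells and 8.06% in monocytes. Naaa, a lysosomal amidase gene, was found in 19.6% of thinned members and also in 13.4% of monocytes, against 1.01% of T cells. Monocytes thus held Naaa above free RNA too, and 2 UMIs of it were enough to make a class II-bearing cell a member.

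The precursor part of the label had little support in Kit and Cd34, genes of early progenitors. The class II minimum and the Siglech limit of the rule kept out any precursors low in class II or holding Siglech. Kit, the stem cell factor receptor, gave 19 UMIs in 14 members, of which 11 UMIs lay in 6 of the 16 Xcr1/Clec9a cells. Cd34, a progenitor surface gene, gave 9 UMIs in 8 members, and 22 members in all held a UMI of either gene. The myeloid granule genes of progenitors were lower in Cd209a cells than in monocytes, a class that included some progenitor-like cells, with log2 ratios of -3.87 for Mpo, -3.77 for Elane and -3.95 for Prtn3. Of 14 genes of a precursor list that did not choose the monocytes, 11 were compared. In Cd209a cells 1 was higher, 7 were lower and 3 lay within 2-fold. Cx3cr1, Cd93, Ly6d and Satb1 of that list were seen in 184, 40, 38 and 37 members. The 3 kinds are therefore called by their leading genes.

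Values near the limits of the rule were as follows. The 8 members with 20 to 24 class II UMIs had Cd209a at 8.20 and the monocyte lysozyme gene Lyz2 at 248 per 10000, and 20 barcodes just below the limit, with 15 to 19, had 3.11 and 205. The 53 members with a marker sum of 2 had Naaa at 1.79, Flt3 at 0.472 and Lyz2 at 172, while the 71 barcodes with a sum of 1 had 1.18, 0.301 and 199. Barcodes on either side of the marker limit were thus alike in Lyz2 and differed less in Flt3 than both differed from the 202 members with at least 40 class II UMIs and a marker sum of at least 4, where Flt3 was at 0.885 and Lyz2 at 90.7.

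RNA of other cell types was low apart from monocyte and neutrophil genes. Summed over 12 B cell genes the level in members was 2.23 to 4.96 per 10000 over the days, against 139 in B cells. Over 12 plasmacytoid genes, including Irf8, it was 6.99 to 10.1, against 143 in plasmacytoid cells, and over 10 T cell genes 0.0796 to 1.01, against 44.5 in T cells. The 12 macrophage genes reached 0.558 to 1.73, with Mertk, Cd5l and Fcna at 0 UMIs. The B cell, plasmacytoid and macrophage lists hold Cd79a, Siglech and the C1q genes, which the rule capped in members. Those low sums are thus partly a result of the rule. The B, plasmacytoid and T cells set beside them were chosen for genes of their own lists. Neutrophil genes summed to 161 to 373 in members, below the 496 to 863 of T cells. Classical monocyte genes summed to 170 to 220, against 266 to 356 in monocytes and 39.1 to 66.8 in T cells.

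**Figure D2:**
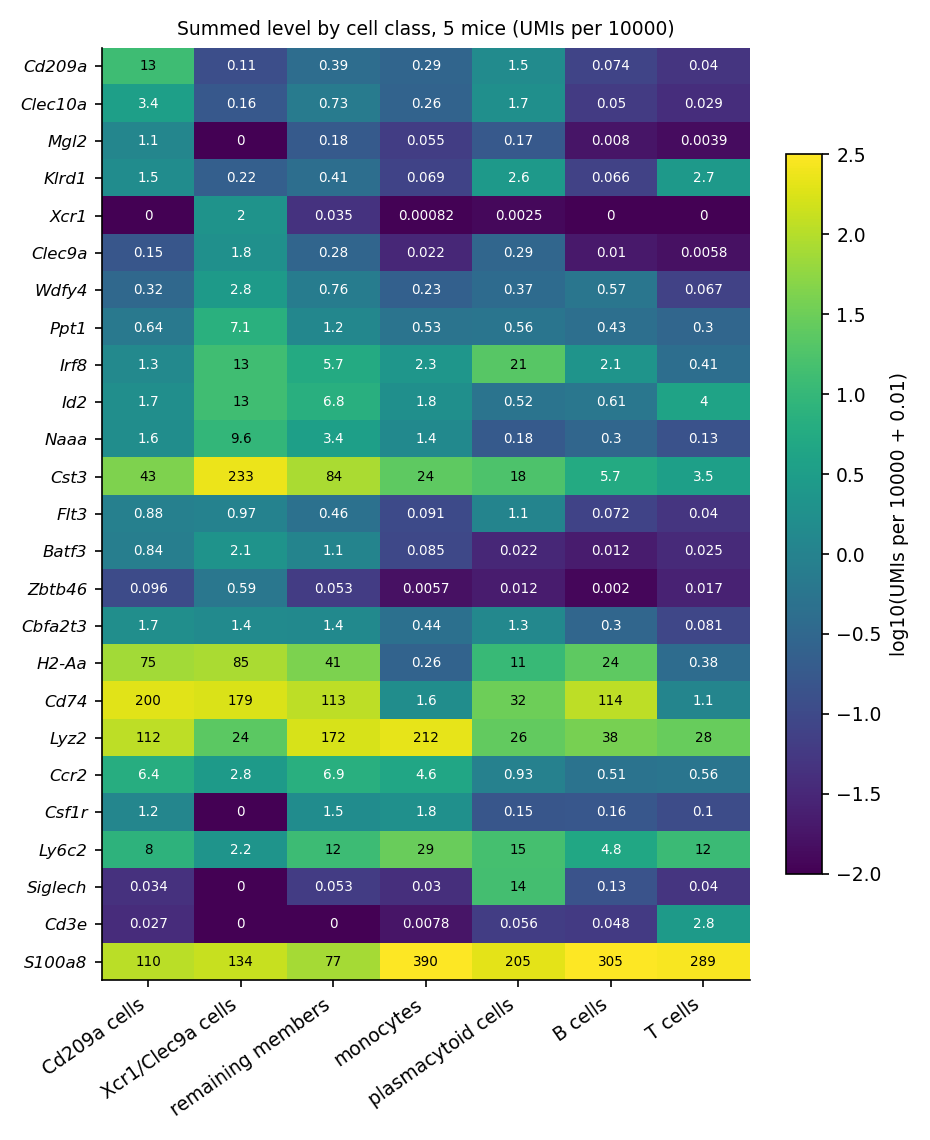
Summed level of marker genes in each kind of member and in reference cells of the same 5 libraries, coloured by log10 of UMIs per 10000 plus 0.01, with the level printed in each cell. Cd209a was at 12.9 in Cd209a cells and at 0.108 in Xcr1/Clec9a cells, and Irf8 at 1.32 and 13.1.

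Cd209a cells and Xcr1/Clec9a cells differed in most of the known branch genes that had enough UMIs. Of 3303 genes with at least 50 UMIs over both kinds, 487 (14.7%) were at least 2-fold higher in Cd209a cells and 164 (4.97%) at least 2-fold lower, 19.7% in all. The median log2 ratio of Cd209a cells to Xcr1/Clec9a cells over all genes was 0.12. No mouse held at least 10 cells of both kinds, and the Xcr1/Clec9a side sums 16 cells of 3 mice, so the direction could not be checked within mice at that minimum. With at least 20 UMIs due on the smaller side, an alternative chosen after seeing the data, 1037 genes were compared, of which 13% were higher and 2.99% lower.

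Of 18 cDC1 genes measured, 10 had enough UMIs, and all 10 were lower in Cd209a cells. Clec9a chose the kinds and Naaa the members, and the other 8 had a median log2 ratio of -3.23. Some reached the minimum mainly through Xcr1/Clec9a cells, such as Rab7b with 42 UMIs there and 13 in Cd209a cells. The count of 10 is thus partly a result of the filter. With at least 20 UMIs due on the smaller side, 4 genes outside the rule were compared and all 4 were lower. Xcr1 itself had 37 UMIs in Xcr1/Clec9a cells (2.0 per 10000) and 0 in Cd209a cells, a count that allows up to 3. Irf8 was at 1.32 in Cd209a cells, 13.1 in Xcr1/Clec9a cells and 5.72 in the remaining members, a log2 ratio of -3.31 between the first 2 kinds (interval -3.59 to -3.03). Id2, an inhibitor of helix-loop-helix factors, was at 1.66, 13.1 and 6.82 in the same order (log2 -2.98). Batf3, the AP-1 family partner of IRF8, was at 0.836, 2.05 and 1.06 (log2 -1.31). These transcription factors were highest in Xcr1/Clec9a cells and intermediate in the remaining members. Wdfy4, needed for cross-presentation, was at 0.315 and 2.81 (log2 -3.16) and Cd24a, a surface glycoprotein gene, at 0.877 and 5.62 (log2 -2.68). The lysosomal thioesterase gene Ppt1 was at 0.644 and 7.14 (log2 -3.47), and Naaa at 1.58 and 9.57 (log2 -2.6). Tlr3, the sensor of double-stranded RNA, was at 0.0137 and 0.865, and Cadm1, an adhesion molecule gene, at 0.0411 and 1.35, both from few UMIs. Gcsam was at 0 and 0.703 and Cd8a, the CD8 chain carried by cDC1 of the spleen, at 0.0411 and 0.703. Itgae and Snx22 gave 4 and 6 UMIs over all members, and Btla was at 0.226 and 0.595.

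The largest ratios on the Xcr1/Clec9a side came from genes of the list and from others. Rab7b, a small GTPase gene of the endosome, was at 0.0891 in Cd209a cells and 2.27 in Xcr1/Clec9a cells (log2 -4.63, interval -5.69 to -3.75). Ifi205, an interferon-inducible gene whose upstream sequence is printed above, was at 0.233, 2.38 and 1.12 in Cd209a, Xcr1/Clec9a and remaining members (log2 -3.35). Cxx1a reached -4.33 and the class II accessory gene H2-Ob -2.57. Cxcl9, a chemokine for activated T cells, had the ratio of largest size (log2 -6.96), but its 100 UMIs came from 9 members, 1 cell held 55 of them and the top 3 cells 90.0%. Nr4a3, an orphan nuclear receptor gene, had 41 of its 106 UMIs in 1 cell. Both ratios therefore describe a few cells.

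Most cDC2 genes with enough UMIs were higher in Cd209a cells. Apart from Cd209a, which chose the kinds, 13 were measured and 8 had enough UMIs, of which 7 were higher, with a median over the 8 of 3.06 on the log2 scale. Cd209a cells held 1459720 UMIs against 185001, so genes could reach the minimum through them alone, such as Mgl2 with 167 UMIs there. The count of 7 is thus partly a result of the filter. With at least 20 UMIs due on the smaller side, 5 genes outside the rule were compared and 4 were higher. Clec12a, an inhibitory lectin gene, was at 1.93 in Cd209a cells and 0.973 in Xcr1/Clec9a cells and lay within 2-fold. Sirpa, the inhibitory receptor that marks cDC2, was at 1.56 in Cd209a cells and 0.108 in Xcr1/Clec9a cells (log2 3.53, interval 1.98 to 6.90). Clec10a, a galactose-binding lectin gene, was at 3.44 and 0.162 (log2 4.19), and its close relative Mgl2 at 1.14 with no UMI on the other side, which makes it at least 7.06-fold higher. Cd300a, an inhibitory receptor gene, reached log2 2.99 and the transcription factor gene Klf4 1.12. Irf4, the factor known for cDC2, was low at 0.315 and 0.0541. No UMI of Clec4a4, Tbx21 or Esam, which mark subsets of cDC2 in the spleen, was found in any member.

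**Figure D3:**
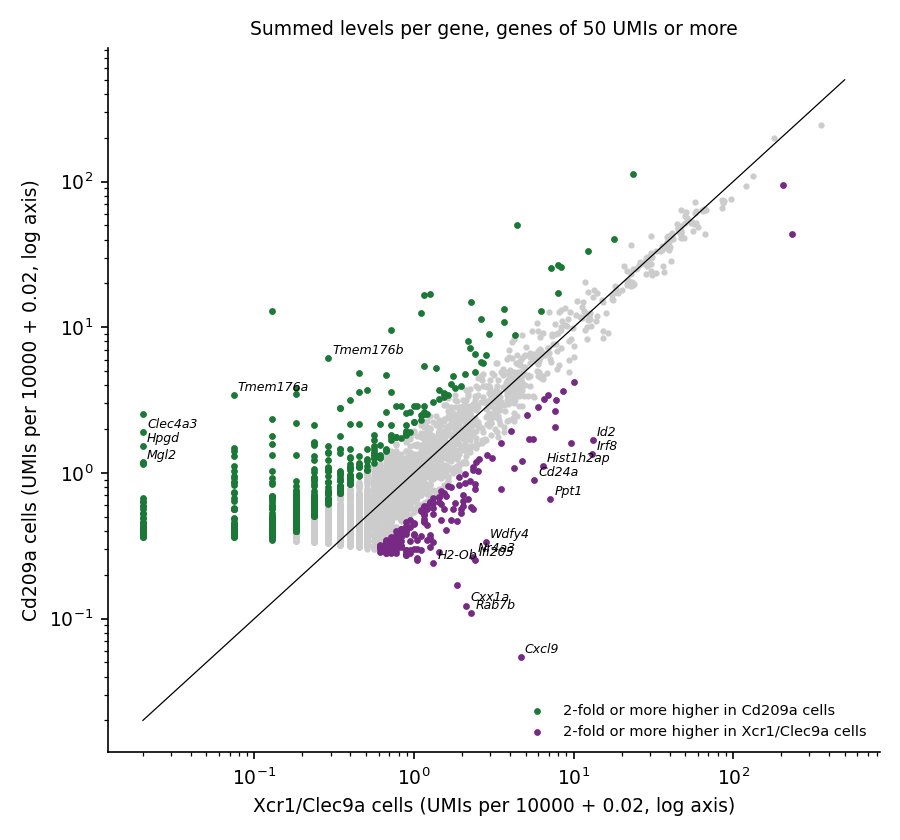
Each point is a gene with at least 50 UMIs over both kinds, at its summed level in Xcr1/Clec9a cells and in Cd209a cells, in UMIs per 10000 plus 0.02 on log axes. Coloured genes are at least 2-fold higher on 1 side, 487 in Cd209a cells and 164 in Xcr1/Clec9a cells, and Irf8, Id2 and Cst3 lie well to the Xcr1/Clec9a side of the diagonal.

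C-type lectins and monocyte genes stood on the same side as Cd209a. Apart from Cd209a and Clec9a, which chose the kinds, 12 lectins were compared, and 11 were higher in Cd209a cells and 0 lower. This count is partly a result of the same filter. With at least 20 UMIs due on the smaller side, 6 lectins were compared and 5 were higher. Clec4a3 had 277 UMIs in Cd209a cells and none in Xcr1/Clec9a cells, at least 11.7-fold higher, and the mannose receptor gene Mrc1 was at least 3.55-fold higher in the same way. Reads of the Clec4a, Cd209 and Ly6 families could be divided between near-identical copies, so their single values are uncertain. Of 12 classical monocyte genes 10 were higher in Cd209a cells. Lyz2 was at 112 in Cd209a cells, 23.7 in Xcr1/Clec9a cells, 172 in the remaining members and 212 in monocytes. Csf1r, the receptor of the monocyte growth factor, had 171 UMIs in Cd209a cells (1.17 per 10000) and none in Xcr1/Clec9a cells, at least 7.22-fold higher, and monocytes had 1.83. Xcr1/Clec9a cells thus held the least monocyte RNA and the remaining members the most.

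Other named genes of the Cd209a side were Hpgd, which encodes the enzyme that inactivates prostaglandins (at least 9.29-fold higher), the receptor gene Sirpb1c (at least 6.93-fold) and the tumor necrosis factor receptor gene Tnfrsf1b (at least 4.06-fold). Dusp22, Gm9733, Klra2 and Glipr2 were at least 3.84-, 3.76-, 3.51- and 3.38-fold higher. The ion channel gene Tmem176a had 497 UMIs in Cd209a cells and 1 in Xcr1/Clec9a cells (log2 5.39, interval 3.49 to 11.28), and its neighbour Tmem176b reached log2 4.36. Interferon-response genes leaned the same way, with 11 of 18 higher and 1 lower in Cd209a cells. Here too genes could reach the minimum through Cd209a cells alone.

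Genes shared by all conventional dendritic cells were found on both sides. Apart from Itgax of the rule, 12 were compared, of which 1 was higher in Cd209a cells, Bcl11a (log2 1.33), and 6 were lower. Flt3 differed little between the kinds (log2 -0.17, interval -0.86 to 0.66). Cst3, the cysteine protease inhibitor gene that is abundant in dendritic cells, was at 43.4 in Cd209a cells, 233 in Xcr1/Clec9a cells, 84.3 in the remaining members and 24 in monocytes. Zbtb46, the transcription factor gene that sets conventional dendritic cells apart from monocytes, was at 0.0959, 0.595, 0.0531 and 0.00572 in the same order. T cells, which should lack it, had 0.0173. After thinning to 1000 UMIs a Zbtb46 UMI was seen in 2 of 16 Xcr1/Clec9a cells (12.5%), 1 of 214 Cd209a cells (0.467%), 0 of 81 remaining members and 4 of 1483 T cells (0.270%). At equal depth Cd209a cells and remaining members were thus not shown to lie above free RNA. Itgax, the CD11c gene of the rule, was at 0.308, 0.649, 0.496 and 0.0196, and Dpp4, a surface peptidase gene, at 0.754, 1.08, 0.602 and 0.098. Rab32 was at 0.534 in Cd209a cells and 1.08 in Xcr1/Clec9a cells, Amica1 at 0.445 and 1.84, Kmo at 0.555 and 0.865, Mycl at 0.103 and 0.649, Relb at 0.349 and 0.162, and Ffar2 at 0.0959 and 0.0541.

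The class II genes of the rule, which every member had to hold, were at like levels in both named kinds. H2-Aa was at 75 in Cd209a cells and 84.5 in Xcr1/Clec9a cells, and Cd74, the invariant chain gene, at 200 and 179, with 41.1 and 113 in the remaining members. B cells, which were chosen with the same class II minimum, had 24.3 and 114. H2-Ab1, which the rule did not use, was at 65.7 and 84.8 in the named kinds (log2 -0.37). Of 10 class II and loading genes compared outside the rule, 5 lay within 2-fold and 5 passed it, against 19.7% of all genes. Ctss, Lgmn and Ifi30, which encode lysosomal enzymes that process antigen, were higher in Cd209a cells, with log2 ratios of 1.88 for Ctss and 1.68 for Ifi30. H2-Oa and H2-Ob, whose product restrains class II loading, were lower.

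The remaining members lay close to Cd209a cells in most genes. In a comparison added after seeing the data, 2959 genes had at least 50 UMIs over both kinds and at least 20 due on the smaller side. Of these, 17 (0.575%) were at least 2-fold higher in Cd209a cells and 16 (0.541%) lower, with the same direction in each of the 4 mice that held at least 10 cells of both kinds. Higher in Cd209a cells were Cd209d (log2 5.14), a near relative of Cd209a, Mgl2 (2.63), Clec10a (2.23), Mrc1 (2.57), Cd7 (2.36) and the lectin-like receptor gene Klrd1 (1.89). Lower were Ifi205 (-2.25), Irf8 (-2.11), Id2 (-2.03), Cd24a (-1.55) and the lipid carrier gene Apoe (-1.54). Apart from Naaa, 7 cDC1 genes were compared and 4 were lower in Cd209a cells, and of 12 classical monocyte genes 0 passed 2-fold in either direction.

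Single remaining members were unlike each other, and single Cd209a cells varied as well. Their median Lyz2 level per cell was 178 with quartiles of 21.2 and 326, against a median of 56.0 (22.3 to 182) in Cd209a cells and 17.6 (13.2 to 24.3) in Xcr1/Clec9a cells. Irf8 had a median of 1.92 with quartiles of 0 and 5.25, and Cst3 a median of 38.0 with quartiles of 26.0 and 93.4. The upper quartile of Cst3 in the remaining members was below the lower quartile of 172 in Xcr1/Clec9a cells. Sums over the 81 cells therefore mix cells rich in Lyz2 with cells rich in Cst3 and Irf8. In Cd209a cells Cd74 had quartiles of 98.0 and 298, beside the wide Lyz2 quartiles given above. Their sums thus also mix cells of unlike Lyz2 and class II levels.

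Beside monocytes, which by definition held fewer than 20 UMIs of the 3 class II genes of the rule, Cd209a cells taken as a sum shared much of their program. This comparison and the next were also added after seeing the data. Of 5680 genes, 133 (2.34%) were higher and 373 (6.57%) lower in Cd209a cells, with the same direction in each of the 5 mice. H2-Ab1, another class II gene, was at a log2 ratio of 7.49. The 2 sides were chosen on opposite sides of a class II limit, so this ratio is not independent of that choice. Clec10a was at a log2 ratio of 3.75. Klrd1 and Cd7, better known from natural killer and T cells, reached 4.47 and 4.29. Klrd1 was at 1.53 in Cd209a cells, 2.58 in plasmacytoid cells, 2.67 in T cells and 0.069 in monocytes. Tmem176b (2.74), Tmem176a (2.69) and Hpgd (1.75) were higher as well, and so were the co-stimulatory genes Cd83 (2.09) and Cd40 (1.60).

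Shared dendritic cell genes were higher in Cd209a cells than in monocytes in 4 of 8 cases, with log2 ratios of 1.94 for Cbfa2t3, 1.79 for Bcl11a, 1.34 for Plbd1 and 1.27 for Relb. Monocytes were chosen by Csf1r, Ly6c2, Fn1, Ccr2 and F13a1, so the lower values of Ly6c2 (-1.85), Fn1 (-1.24) and F13a1 (-1.08) in Cd209a cells follow that choice. Of the 7 other classical monocyte genes 1 was lower, Chil3 (-2.83), and 6 lay within 2-fold. The chemokine receptor gene Ccr2, which monocytes need to leave the marrow, was at 6.39 in Cd209a cells and 4.57 in monocytes. All 12 S-phase genes were lower in Cd209a cells, with a median log2 ratio of -2.11 against -0.07 over all genes, and 4 of 12 G2/M genes were lower. The monocyte class held granule genes of progenitors, with Mpo at 4.26 and Elane at 6.79, and the part of those cells in the cell cycle difference was not tested.

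The remaining members, set beside the same monocytes, had 53 of 2926 genes (1.81%) higher and 111 (3.79%) lower, 5.6% in all. Of 5 shared dendritic cell genes 4 were higher, with Cst3 at a log2 ratio of 1.81, Cbfa2t3 at 1.66, Plbd1 at 1.68 and Id2 at 1.95. Irf8 was also higher (1.31), and Lyz2 lay within 2-fold (-0.31).

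Plasmacytoid dendritic cells, the interferon-producing dendritic cells that the rule kept out by Siglech, were far from Cd209a cells in their own genes. Of 6208 genes, 394 (6.35%) were higher and 782 (12.6%) lower in Cd209a cells. Apart from Siglech, which chose the plasmacytoid cells, all 11 plasmacytoid genes were lower, with a median log2 ratio of -6.09, and Tcf4, the master factor of that lineage, was at 0.589 against 8.89 (log2 -3.91). Irf8 was lower (log2 -4.02) and Batf3 higher (log2 5.17). Class II and loading genes outside the rule were higher in 5 of 10 cases and 12 of 12 S-phase genes were lower. Plasmacytoid cells held Cd209a at 1.49 and Clec10a at 1.71, above the 0.0404 of Cd209a in T cells.

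Comparisons of days 3, 6, 9 and 12 with day 0 asked how gene levels of the members moved as the disease advanced. All 4 share the day 0 mouse. Genes with at least 50 UMIs over both days were compared. At day 3, 52 of 1792 genes (2.9%) were at least 2-fold higher and 16 (0.893%) lower. At day 6 the numbers were 48 (2.5%) and 23 (1.2%) of 1923 genes, and at day 9 they were 40 (2.3%) and 18 (1.04%) of 1737. At day 12 they were 39 (3.43%) and 14 (1.23%) of 1137. In both directions together this was 3.79%, 3.69%, 3.34% and 4.66% of the genes compared at days 3, 6, 9 and 12.

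Cell division genes gave most of the largest ratios. Ube2c, a ubiquitin-conjugating enzyme gene of mitotic exit, was at 0.0796, 2.40, 1.92, 2.03 and 2.87 per 10000 in members from day 0 to day 12. Every later day was above day 0, with log2 ratios of 4.60 (interval 3.03 to 7.98), 4.28, 4.36 and 4.86. Stmn1, a microtubule regulator gene, was at 0.239, 3.64, 2.28, 3.65 and 5.49, and Top2a, the topoisomerase gene, at 0.159, 1.0, 0.545, 0.889 and 2.06. Both were again lowest at day 0. The histone gene Hist1h2ap and the PCNA-associated factor gene 2810417H13Rik were also among the 5 largest increases at 3 or more of the days, with log2 ratios of 4.31 and 3.05 at day 3. Cks1b and Cdca3, further cell cycle genes, were at 0.239 and 0.0398 at day 0 and at 1.09 to 1.85 and 0.382 to 0.925 later. Of 12 G2/M genes measured, 4, 3, 4 and 4 had enough UMIs at days 3, 6, 9 and 12, and all of these were at least 2-fold higher. These genes reached the minimum mainly through the later day, such as Top2a with 4 UMIs at day 0 and 55 at day 3. That all of them were higher is thus partly a result of the filter.

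The difference rested on a minority of cells. Members with at least 10 UMIs over the 12 G2/M genes numbered 0 of 44, 9 of 69, 6 of 79, 10 of 84 and 5 of 36, or 0%, 13%, 7.59%, 11.9% and 13.9% in the order of the days. The count of 0 at day 0 has an upper exact limit of 8.04%, which reaches into the intervals of every later day. All 3 kinds held such cells, 16 of 215 Cd209a cells (7.44%), 5 of 16 Xcr1/Clec9a cells (31.3%, interval 11.0 to 58.7%) and 9 of 81 remaining members (11.1%). These 30 cells had a median of 12511.5 UMIs, against 6289 in the other members, and the deepest member at day 0 had 10300 UMIs. Without them Ube2c was at 0.0796, 0.278, 0.386, 0.436 and 0.470 and Stmn1 at 0.239, 0.440, 0.791, 1.28 and 0.939, both still lowest at day 0. Top2a was at 0.159, 0.0694, 0.147, 0.138 and 0.235 and 2810417H13Rik at 0.159, 0.0925, 0.313, 0.413 and 0.235, so neither was lowest at day 0. Hist1h2ap was at 0.159, 0.278, 0.331, 0.344 and 0.235. The part of free RNA in that remainder was not tested.

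At equal depth day 0 had the lowest share, within counting error. With each member thinned to 1000 UMIs, 9.30%, 26.1%, 20.3%, 22.6% and 16.7% held a G2/M UMI from day 0 to day 12, and the interval at day 0 (2.59 to 22.1%) overlapped that of every later day, such as 6.37 to 32.8% at day 12. In Cd209a cells alone the share was 10.7% at day 0 and at day 12. Of all members, 0%, 8.70%, 6.33%, 10.7% and 11.1% held at least 3. Summed G2/M levels were 1.35, 9.23, 8.0, 9.38 and 15.5 in members and 10.7, 13.1, 16.1, 14.6 and 14.9 in monocytes. T cells had 1.85, 5.28, 4.68, 7.11 and 4.03 and B cells 3.78, 9.74, 9.13, 6.97 and 6.37. Day 0 was thus the lowest day in these classes too, by a smaller ratio in monocytes than in members, and that difference was not tested. S-phase genes summed to 1.47, 3.34, 2.65, 2.88 and 4.12 in members and to 7.69 to 9.79 in monocytes.

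**Figure D4:**
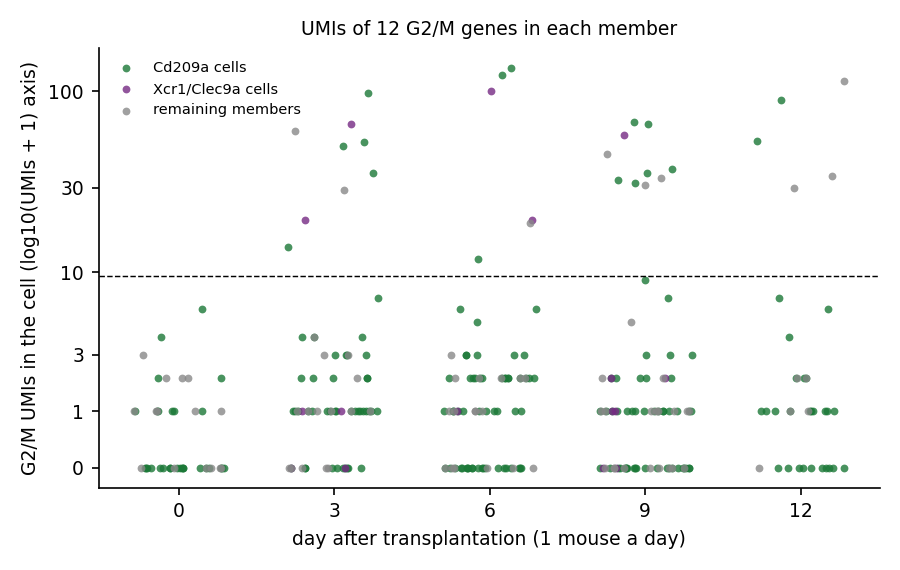
UMIs of 12 G2/M genes in each member by day, on an axis of log10 of UMIs plus 1, coloured by kind of member, with small random sideways shifts. The dashed line lies at 10 UMIs; 0 members at day 0 and 9, 6, 10 and 5 at days 3, 6, 9 and 12 reached it.

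Most dendritic cell genes outside the rule lay within 2-fold of day 0. Irf8 ranged from 2.49 to 3.91 and Cst3 from 58.0 to 76.7 over the days, neither of them past 2-fold. Clec10a was at 4.34, 1.93, 2.58, 1.87 and 2.87 and was at least 2-fold lower at day 3 (log2 -1.17, interval -1.57 to -0.77) and day 9 (-1.21). Of the cDC1 genes outside the rule 6, 5, 6 and 3 were compared at days 3, 6, 9 and 12, and 0 passed 2-fold. Cd209a, which every day's members were chosen by, was at 10.7, 10.1, 8.95, 6.31 and 7.46, and Naaa, also of the rule, ranged from 2.19 to 3.34.

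Class II genes were lowest at day 12 without passing 2-fold. H2-Aa, H2-Eb1 and Cd74 are genes of the rule, whose UMI minimum was the same for days of different depth, and H2-Ab1 is not. H2-Aa was at 74.8, 75.3, 65.4, 65.8 and 47.3, H2-Ab1 at 80.2, 67.7, 55.4, 53.7 and 47.1, and Cd74 at 224, 188, 177, 160 and 133. All 3 were lowest at day 12, with log2 ratios to day 0 of -0.66, -0.77 and -0.75, and H2-Eb1 had -0.84. Summed over 14 class II and loading genes, the level was 471, 417, 374, 354 and 291 in members and 597, 436, 403, 404 and 352 in Cd209a cells alone. Per-cell sums varied widely, with medians of 314, 264, 254, 268 and 197 and quartiles of 108 and 544 at day 0 and 79.4 and 412 at day 12. B cells, which were chosen with the same class II minimum, had 265, 184, 173, 163 and 232, highest at day 0 and lowest at day 9. Plasmacytoid cells had 67.7, 74.8, 75, 70.5 and 55.1 and T cells 3.88, 5.07, 6.48, 4.46 and 2.68, both lowest at day 12 as in members, and monocytes had 17.1 to 19.7.

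The AP-1 genes, early response genes that cell handling can also induce, were mostly highest at day 0. Fos was at 18.0, 9.33, 7.70, 11.2 and 11.8, with log2 ratios to day 0 of -0.95, -1.23, -0.68 and -0.62. Jun was at 7.88, 4.62, 4.12, 5.68 and 5.66, and Junb at 8.91, 6.49, 4.99, 4.70 and 7.46. Jund was at 6.72, 5.11, 4.25, 5.86 and 6.26, and Fosb at 4.54, 3.42, 2.93, 4.17 and 5.02. Day 0 was the highest day for all of these but Fosb, and only Fos at day 6 passed 2-fold. Dusp1, a phosphatase gene of the same response, was at 8.63, 3.69, 3.58, 3.03 and 7.16 and was at least 2-fold lower at days 3, 6 and 9.

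Summed over 18 AP-1 and immediate early genes, members had 91.5, 62.5, 49.1, 57.3 and 69.7, and monocytes had 92.8, 45.7, 44.7, 46.1 and 71.8. Plasmacytoid cells had 75.7, 30.8, 30.3, 30.3 and 48.8, and T cells had 44.2, 25.8, 29.7, 27.8 and 40.3. Each class was highest at day 0, so the order was not particular to members. Cd209a cells alone had 74.6, 63.5, 48.5, 64.7 and 72.6, so in this kind days 0 and 12 were close. Handling of the day 0 sample and the disease stage cannot be told apart with 1 mouse a day. Past 2-fold lower were 2 of 17 genes at day 3, 5 of 16 at day 6, 4 of 15 at day 9 and 1 of 14 at day 12, and 1 gene, Fosl2, was higher at day 3.

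**Figure D5:**
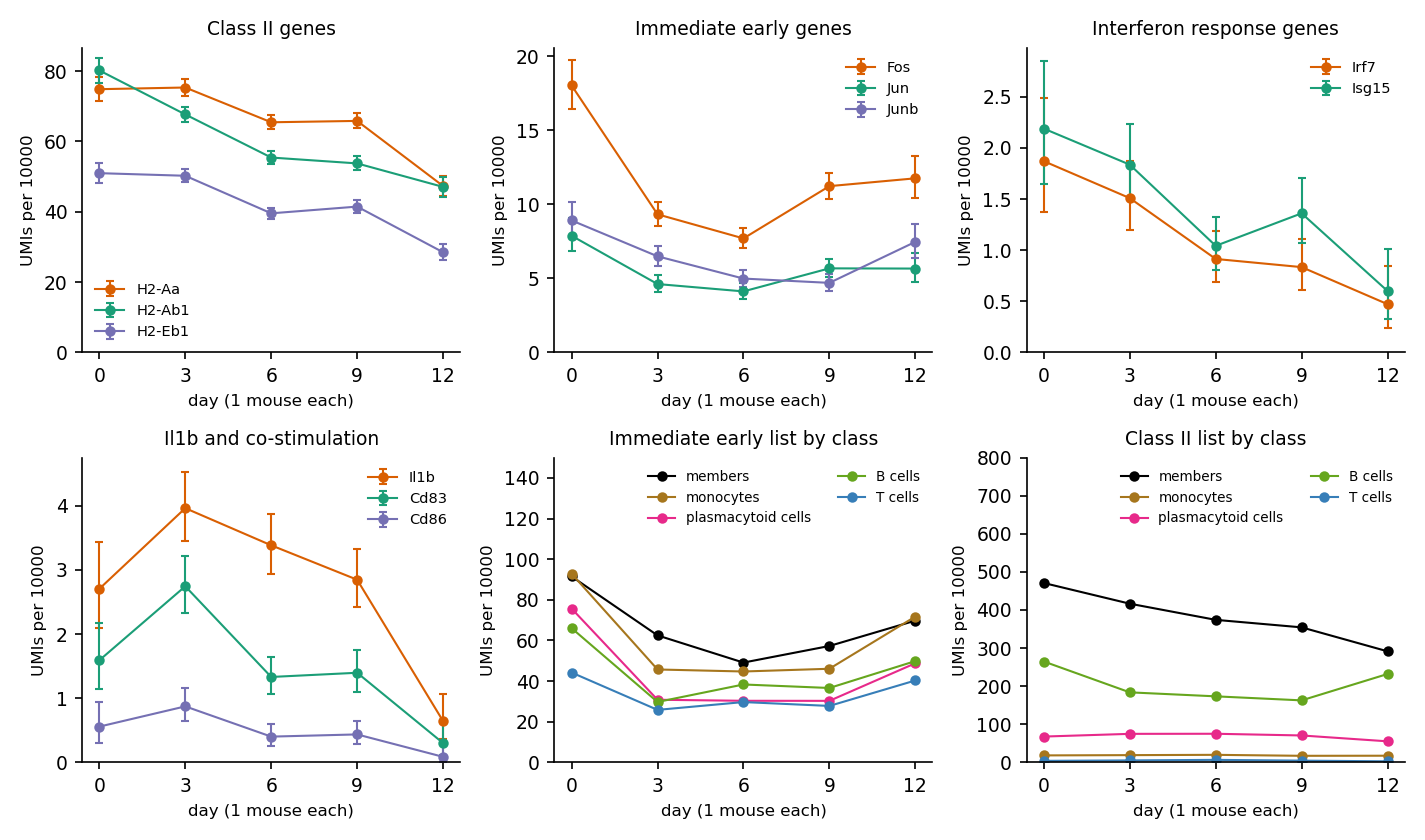
Summed levels in UMIs per 10000 at each day, 1 mouse a day, for named genes in members, with exact counting intervals, and for gene lists in members and other cell classes. The class II list was at 471 at day 0 and 291 at day 12 in members, and the AP-1 list was highest at day 0 in members (91.5) and in monocytes (92.8).

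Irf7 and Isg15 were the interferon-response genes that were at least 2-fold lower on a later day. Irf7, the interferon regulatory factor that amplifies the response, was at 1.87, 1.51, 0.914, 0.834 and 0.472 in members and at 0.516 to 0.63 in monocytes. Each later day was lower in members, with log2 ratios to day 0 of -0.32, -1.04, -1.16 and -1.94 (interval at day 12 -3.08 to -1.02). Isg15, a ubiquitin-like interferon-induced gene, was at 2.19, 1.84, 1.04, 1.36 and 0.601. Of the list, 0 of 14 genes were past 2-fold at day 3, 2 of 13 at day 6, 1 of 11 at day 9 and 2 of 8 at day 12, all of them Irf7 or Isg15. Summed over 22 genes the level was 106, 98.1, 86.9, 74.6 and 80.2. The fall from day 0 was larger than the levels of Irf7 and Isg15, so other genes of the list were lower as well.

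Inflammatory genes did not follow 1 course. Il1b, a fever-inducing cytokine gene, was at 2.71, 3.96, 3.38, 2.85 and 0.643, so only day 12 was low (log2 -2.04, interval -2.99 to -1.25). Cd14, the lipopolysaccharide co-receptor gene, was at 1.75, 2.33, 1.17, 0.218 and 0.643, with -2.97 at day 9. Clec4e, a lectin gene for mycobacterial glycolipid that neutrophils also express, was at 1.67, 0.945, 0.593, 0.290 and 0.386, with -2.50 at day 9 and -2.05 at day 12. Ms4a6d, a membrane protein gene of monocytic cells, was at 1.31, 0.509, 0.449, 0.417 and 0.214 and was among the 5 largest decreases at days 3, 6 and 9. Ccl5, a T cell chemokine gene, was at 0.318, 0.218, 0.882, 2.30 and 0.386 and was higher at day 9 (log2 2.77), while T cells held 40.9.

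Ccr7 and Fscn1, genes of migrating mature cells, gave few UMIs. Summed over 14 maturation and migration genes, the level was 4.83 in members, 2.35 in monocytes and 43.6 in T cells. Cd83, a stabiliser of surface class II, was at 1.59, 2.74, 1.33, 1.40 and 0.300, highest at day 3 and lowest at day 12. Cd86, the ligand of CD28, was at 0.557, 0.873, 0.401, 0.435 and 0.0858 with the same highest and lowest days. Ccr7, the receptor that guides mature dendritic cells to lymph nodes, gave 37 UMIs over all members, Fscn1, the actin-bundling gene of mature cells, gave 1, and Il12b gave 0.

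Some of the named differences involved genes of other cell types. S100a8, a neutrophil gene, was at 173, 52.6, 71.0, 142 and 142 in members and was lower at day 3 (log2 -1.71) and day 6 (-1.28). In T cells it was at 242, 348, 269, 353 and 226, a different order of days. The median over single Cd209a cells was 58.0, below their summed level of 110, so a few cells held much of it. Igkc, an immunoglobulin gene, was at 1.83, 0.564, 3.11, 1.51 and 0.214 in members and 251 in B cells, and 1 day 0 member held 27 of the 46 UMIs of that day. Camp, another neutrophil gene, was lower at day 3 as well. At day 0 the highest single member held 1753 of 4337 S100a8 UMIs and the highest for Camp 498 of 1076. The highest at day 3 held 63 and 25, so these ratios rest largely on single cells at day 0. Nr4a3 at day 3 (log2 2.90) had 41 of its 73 UMIs in 1 cell. Cxcl9 had 65 UMIs at day 9 and none at day 0, at least 9.88-fold higher, with 55 of them in 1 cell. Further genes of the extreme ratios were Cxcl2, Ppp1r15a, Atf3 and Ccnl1 among the decreases at day 6, Gm7676 at day 9 and Litaf at day 12, with levels at day 0 of 1.35, 1.39, 3.46, 3.74, 1.87 and 1.59, which were 0.385, 0.417, 1.20 and 1.27 at day 6, 0.598 at day 9 and 0.429 at day 12.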

How the data were processed

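Bone marrow of 5 mice was profiled by 10x Genomics 3′ single-cell RNA sequencing. The authors deposited raw UMI counts per gene and barcode, made with Cell Ranger on mm10, with empty droplets included; the annotation release is not given in the sources used here. The counts were used as deposited. Barcodes with at least 500 UMIs and at most 10% mitochondrial UMIs were kept, and members were chosen by the rule given at the start. Members and gene lists were chosen with earlier results of these data known.

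UMIs were summed over the cells of a class and mouse and given per 10000 UMIs. Genes with at least 50 UMIs over both sides were compared, with a prior count of 0.5, and a ratio of 2-fold or more in either direction was counted as different. Ratios between classes also had to keep their direction in each mouse with at least 10 cells on both sides. Where 1 side had 0 UMIs, the bound uses 3 counts over that side. Intervals are exact at 95%, and PCR and mouse-to-mouse error lie outside them. Comparisons with remaining members, monocytes and plasmacytoid cells were added after seeing the data and required at least 20 UMIs due on the smaller side.

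Reference cells were taken from the same barcodes by marker UMIs. Macrophages held at least 10 C1q UMIs and plasmacytoid cells at least 2 Siglech UMIs. B cells held at least 4 Cd79a and Cd79b UMIs and at least 20 UMIs of the class II genes of the rule. T cells held at least 4 T cell receptor complex UMIs, and monocytes at least 1 Csf1r UMI and at least 5 over Ly6c2, Fn1, Ccr2 and F13a1. Neutrophils had S100a8 and S100a9 at 5% or more of their UMIs.

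Named genes were those of the rule and of the cDC1, cDC2 and shared lists, the 12 genes with the largest ratio each way for the split, the 5 with the largest and smallest for each day, the 5 AP-1 genes, and from other lists those at the highest level or past 2-fold. Genes named beyond these were chosen after their values were seen, and 1 gene is not reported here. Doublets were scored with Scrublet in scanpy 1.11.5 and kept, since the caller marked under 0.5% of the barcodes in 4 libraries. For shares of cells each cell was thinned to 1000 UMIs, which left out 1 member. The steps used Python 3.11.15, numpy 2.4.6, scipy 1.17.1 and pandas 2.3.3 and were tested on simulated data. Alternatives changed the rule, depth limits, doublets, gene filter, thinning and the mice included.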

Additional observations from a re-analysis of the deposited data

How the results depend on the processing

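No paired analysis was possible because each day is 1 mouse and the result comes from no test. Of 222 summary values recomputed under the alternatives, 184 stayed within the limits set for a change and 38 moved, and among 2545 values of single genes 2463 stayed and 82 moved. No value reversed its direction. Counts of genes past 2-fold were 68, 71, 58 and 53 at days 3, 6, 9 and 12 against day 0, 651 between Cd209a and Xcr1/Clec9a cells, 33 between Cd209a cells and remaining members, 506 and 1176 between Cd209a cells and monocytes or plasmacytoid cells, and 164 between remaining members and monocytes. With a minimum of 20 UMIs a gene they were 347, 372, 378 and 262 by day, 1498 for the split, 161 against remaining members and 383 for remaining members against monocytes. With a minimum of 1 UMI they were 3464, 3453, 3478 and 4057 by day and 4880, 1403, 4423, 2652 and 5593 in the order of the class comparisons above. With cells thinned to 1000 UMIs they were 7, 8, 5 and 7 by day and 118, 7, 105, 255 and 35 for the class comparisons. With at least 20 UMIs due on the smaller side the split gave 166. These filters change how many genes are compared. A marker sum of at least 3 raised the Cd209a share of members to 77.6% and gave 35 genes at day 12, 50 against remaining members and 105 for remaining members against monocytes. Thinning before the split lowered the shares of Cd209a and Xcr1/Clec9a cells to 24.4% and 0.643%. Alternatives chosen after seeing the data gave 33, 38 and 23 genes at days 3, 9 and 12 without members of at least 10 G2/M UMIs, and 32 and 23 at days 9 and 12 in Cd209a cells alone. Leaving out 1 mouse at a time gave 447 to 598 genes for the split, 38 to 55 against remaining members with 55 reached without the day 6 mouse, 405 to 520 against monocytes, 967 to 1214 against plasmacytoid cells and 130 to 174 for remaining members against monocytes. For moved values where no construction shows it, the cause was not tested. Depth limits genes at a few UMIs and all counts from the 16 Xcr1/Clec9a cells, and 1 mouse a day gives no spread between mice.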
